A study of Homo sapiens with 12 samples.

Results

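The ERBB, IGF and PI3K signalling genes described here are 10 of the 25370 genes of an RNA-seq count table from T47D cells, an estrogen receptor-positive human breast cancer line, and were picked by symbol from that table. All 10 were found, and all 10 were among the 21132 genes with at least 1 count in the 12 libraries. They are 5 receptors (ERBB2, ERBB3, ERBB4, IGF1R and INSR), the adaptors IRS1 and IRS2, and the PI3K subunits PIK3CA, PIK3R1 and PIK3R3. The study compared vehicle, 10 nM anastrozole, 0.1 nM E2 (17β-estradiol) and both agents together at these doses (anastrozole plus E2, also called the combination), with 3 libraries per group, lettered a, b and c. Anastrozole inhibits aromatase, the enzyme that makes estrogens from androgens, and the question of the design is which mRNAs each agent changes alone and how the pair differs from either. All groups, vehicle included, were kept in medium with 5% charcoal-stripped serum for 48 hours and in serum-free medium for 24 hours before treatment, so all groups, those given E2 included, were deprived of hormone first, and all are of a single line. The sample labels give 12 hours of treatment, whereas the study's methods give a longer time.

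Receptors of the ERBB family pair with one another when a ligand of the EGF or neuregulin type binds; ERBB2 has no known ligand of its own and serves as a partner, and ERBB3 has little kinase activity and signals through its partner. IGF1R and INSR phosphorylate the adaptors IRS1 and IRS2. Phosphorylated ERBB3 and IRS proteins then bind the regulatory subunits of PI3K, which hold and recruit the catalytic subunit, and the lipid it makes activates AKT and mTOR. In breast epithelium these receptors and the estrogen receptor are known to act on each other's output.

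Each library had between 9914253 and 17009776 counts on genes, at which 3 counts are worth 0.177 to 0.303 CPM (counts divided by a library size that edgeR's TMM factors adjust). Luminal markers matched the line, with KRT8, KRT18, KRT19, GATA3, FOXA1, ESR1, PGR, EPCAM and CDH1 between 152 and 3148 CPM in every library, whereas TFF1, a further gene of that list, lay between 0.866 and 2.25 CPM. The fibroblast genes COL1A2, COL3A1 and DCN and the leukocyte gene PTPRC had between 0 and 3 counts per library, although COL1A1 reached up to 99.9 CPM. Across the 10861 abundant genes (averaging 3 log2 CPM or more) with known exonic GC content, fold changes followed that content in several comparisons. Against vehicle, Spearman's rho was -0.53 with anastrozole, -0.55 with E2 and -0.03 with the combination, and it was 0.69 for the combination against E2. A second estimate with each library's GC trend removed (the GC offset) is therefore given beside the results it touches. Anastrozole library c stood apart from anastrozole library a, with 4.83 times the variance that sampling noise gives (chi-square over its degrees of freedom) against 1.28 to 2.65 times in the other 11 pairs of replicates, and values without it are given where they change a call. The labels do not say whether the libraries of a group came from separate cultures, so p-values measure the spread between these libraries, which may be technical. In such bulk RNA, fewer cells with a transcript and less transcript per cell cannot be told apart.

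The receptors ERBB3 and ERBB2 gave the highest levels per length of the 10 genes. In vehicle, ERBB3 reached 37.3 ± 0.589 CPM per kb of exon (SD, n = 3) and ERBB2 31.5 ± 1.40. IGF1R followed at 16.6 ± 0.373 CPM per kb and PIK3R3 at 16.0 ± 0.655, and the ranges of this pair overlapped in the vehicle and anastrozole groups. ERBB4 stood at 9.46 ± 0.801 CPM per kb, PIK3R1 at 8.85 ± 0.213 and IRS1 at 8.02 ± 0.216. The ranges of ERBB4 and PIK3R1 overlapped in vehicle. Per kb, PIK3R1 lay above IRS1 in every vehicle and anastrozole library and below IRS1 in every library with E2. PIK3CA came next at 4.66 ± 0.236 CPM per kb. INSR at 1.57 ± 0.259 and IRS2 at 0.477 ± 0.057 CPM per kb were the lowest. Lengths joined all annotated exons of a gene (16323 bases for PIK3R1, 10019 for IRS1), and the order between genes depends on that choice. In CPM not divided by length, PIK3R1 stood above IRS1 with E2 as well (means of 121 and 84.4 CPM). IRS2 rested on 38 to 83 counts per library and INSR on 183 to 318, against 740 to 6812 for the other 8 genes. Differences in this sparse pair had the largest standard errors and are the least precise. IRS2 was the single member with an average under 3 log2 CPM.

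**Figure D1:**
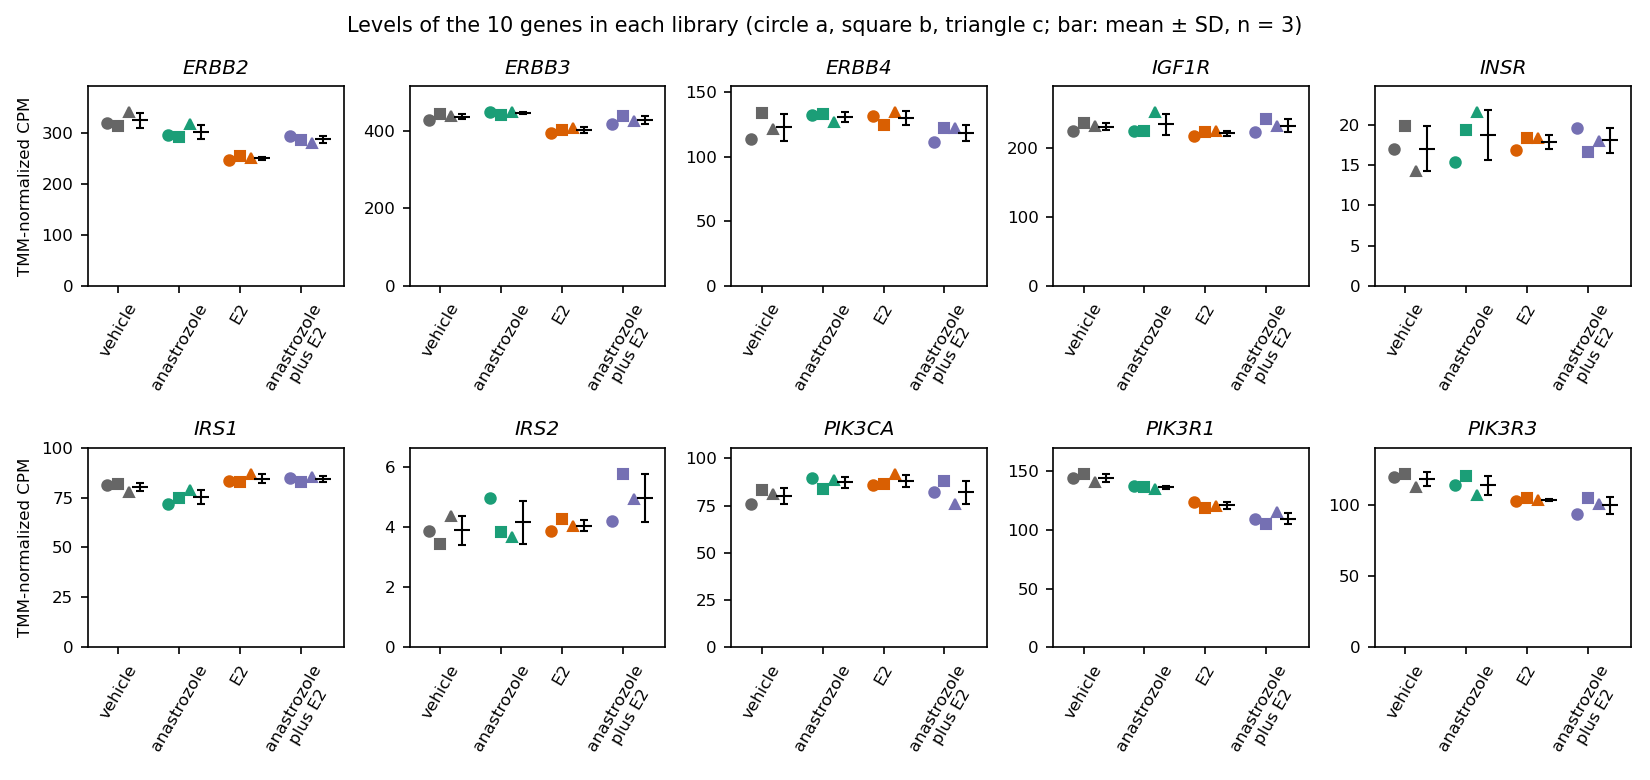
TMM-normalized CPM (y axis, from 0) of each of the 10 genes in the 12 libraries, by treatment group (x axis); symbols mark libraries a, b and c, and the black bar gives the mean with its SD (n = 3). ERBB2 and PIK3R1 sit lower in all 3 E2 libraries than in any vehicle library, while IRS2 and INSR scatter within groups.

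E2 alone lowered ERBB2, ERBB3, PIK3R1 and PIK3R3 against vehicle and raised PIK3CA slightly, while IGF1R, ERBB4, INSR, IRS1 and IRS2 did not pass the threshold. ERBB2, the ligandless partner of the family, stood at 320, 314 and 342 CPM in vehicle (libraries a, b and c, as throughout) and at 248, 254 and 250 CPM in E2. The groups did not overlap, and the level fell to 0.772 of that in vehicle (log2 fold change -0.37 ± 0.03 SE, edgeR quasi-likelihood test, Benjamini-Hochberg adjusted p = 1.96e-25). ERBB2 has a GC content of 57.6%, above that of 80.5% of the abundant genes, and with the GC offset its log2 fold change was -0.29 (edgeR adjusted p = 4.82e-19).

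ERBB3, the kinase-impaired neuregulin receptor, stood at 429, 443 and 437 CPM in vehicle and at 393, 402 and 408 CPM in E2. All E2 values lay below all vehicle values, by less than for ERBB2 (log2 fold change -0.12 ± 0.03 SE, edgeR adjusted p = 0.00257). PIK3R1, which encodes the alpha regulatory subunit, stood at 144, 148 and 141 CPM in vehicle and at 124, 119 and 120 CPM in E2. Again no E2 library reached a vehicle library (log2 fold change -0.26 ± 0.04 SE, edgeR adjusted p = 2.21e-08), and the GC offset left a log2 fold change of -0.33. PIK3R3, the gene of the gamma regulatory subunit, stood at 119, 122 and 113 CPM in vehicle and at 103, 105 and 103 CPM in E2. The log2 fold change of PIK3R3 was -0.19 ± 0.04 SE (edgeR adjusted p = 3.31e-04), again with no overlap between the groups. These 4 decreases passed the threshold under all 10 alternative fits and without each library in turn.

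PIK3CA, the gene of the alpha catalytic subunit, stood at 75.6, 83.5 and 81.3 CPM in vehicle and at 86.2, 86.5 and 92.0 CPM in E2, with no overlap. Its rise was small (log2 fold change 0.14 ± 0.05 SE, edgeR adjusted p = 0.031), and its exons have the lowest GC content of the members, 34.9%. Once the GC trend was removed, the log2 fold change of PIK3CA was 0.03 (edgeR adjusted p = 0.804), and the call was also lost with DESeq2's test, with limma-voom, with the replicate block, with counts thinned to the lowest library total, and without vehicle library a, vehicle library c or E2 library c. PIK3CA shares 19.8% of its exon bases with KCNMB3 on the opposite strand; KCNMB3 lay between 7.07 and 10.3 CPM, and how far its reads enter the PIK3CA count was not tested. Among the genes without a call, ERBB4 had a log2 fold change of 0.08, IGF1R of -0.06, INSR of 0.07, IRS1 of 0.07 and IRS2 of 0.06. With the GC offset the value of ERBB4 was 0.0001 (edgeR adjusted p = 1.0), and without vehicle library b it was 0.15 and passed the threshold (adjusted p = 0.00809). The 95% intervals on all libraries bound how far they may have moved, from -0.0005 to 0.16 for ERBB4, from -0.13 to 0.01 for IGF1R, from -0.12 to 0.25 for INSR, from -0.02 to 0.16 for IRS1 and from -0.29 to 0.42 for IRS2.

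In all, 4 of the 10 members were lower and 1 was higher with E2. Over all genes tested, 5.95% were lower and 6.06% were higher at the same threshold (1257 and 1280 genes, but 752 and 839 with the GC offset), and 21.4% of the abundant genes passed in either direction. The median log2 fold change of the 10 members was 0.0026, against 0.0038 for the 11051 abundant genes. The members, and the list of pathway genes used below, were chosen with earlier results of these data known. Their shares beside those of all genes are therefore descriptions, here and below, and an excess over all genes was not tested.

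The 250 bases before the annotated start of the canonical transcript are shown for 3 of the genes that were lower with E2, ERBB2, PIK3R1 and PIK3R3, so that a reader can set their proximal promoters side by side (GRCh37, GENCODE release 44; 5′ to 3′ on the strand of the gene; capitals mark matches to the AP-2 pattern GCCNNNGGC).
ERBB2 (chr17:37856067-37856316, plus strand): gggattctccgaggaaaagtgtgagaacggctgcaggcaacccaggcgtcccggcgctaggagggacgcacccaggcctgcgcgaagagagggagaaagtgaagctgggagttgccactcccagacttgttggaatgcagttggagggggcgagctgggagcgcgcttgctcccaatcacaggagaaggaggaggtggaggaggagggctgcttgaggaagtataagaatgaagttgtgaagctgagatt
PIK3R1 (chr5:67511334-67511583, plus strand): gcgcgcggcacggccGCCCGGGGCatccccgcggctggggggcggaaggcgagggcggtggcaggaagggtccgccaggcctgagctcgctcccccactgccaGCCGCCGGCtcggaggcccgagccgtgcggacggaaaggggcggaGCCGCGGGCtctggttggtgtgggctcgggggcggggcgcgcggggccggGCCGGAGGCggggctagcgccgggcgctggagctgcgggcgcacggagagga
PIK3R3 (chr1:46598302-46598551, minus strand): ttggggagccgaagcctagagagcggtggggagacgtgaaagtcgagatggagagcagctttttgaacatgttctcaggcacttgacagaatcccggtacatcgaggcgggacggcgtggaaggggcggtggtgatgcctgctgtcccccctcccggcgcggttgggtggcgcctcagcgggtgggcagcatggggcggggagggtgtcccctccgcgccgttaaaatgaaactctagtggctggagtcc

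None of the windows shown held the estrogen response element GGTCANNNTGACC, which 0.0281% of the 21328 windows of this kind in the genome held. The half-site GGTCA, read on both strands and contained in the full element, was found in 30.7% of all windows and in 1 member, ERBB4, between 73 and 69 bases before the start. The AP-2 pattern, which reads the same on both strands, occurred in 24.9% of all windows and in 4 members, IGF1R, INSR, IRS1 and PIK3R1. The window of PIK3R1 held 4 matches, starting 235, 147, 102 and 52 bases before the start, whereas those of ERBB2 and PIK3R3 held none. The forkhead pattern GTAAACA, found in 2.25% of all windows, occurred in 1 member, PIK3CA. Such a match is a description of letters, and a window without one may still be bound, as may sites elsewhere in the gene.

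**Figure D2:**
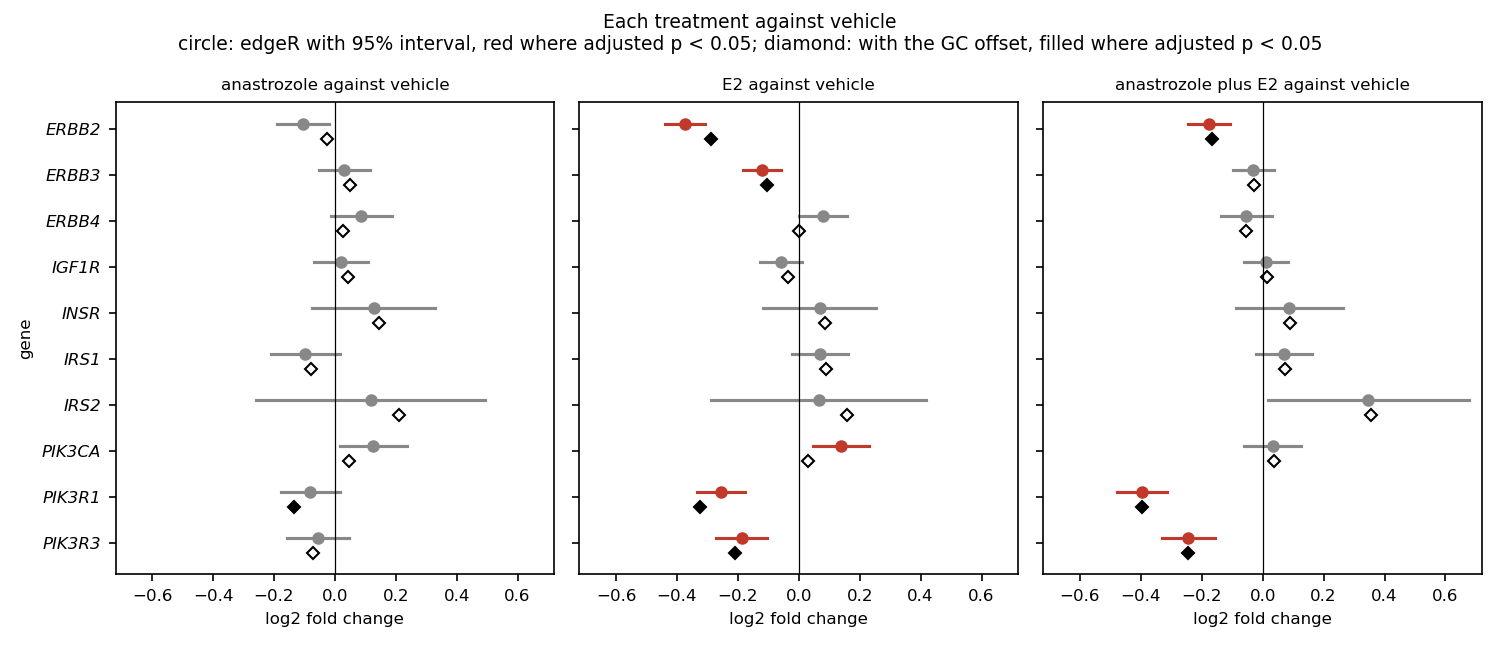
Log2 fold change (x axis) of each gene (y axis) for the 3 treatments against vehicle; circles with lines give the edgeR estimate with its 95% interval, red where the adjusted p was under 0.05, and diamonds the estimate with the GC offset. PIK3R1 and PIK3R3 lie left of 0 with E2 and with anastrozole plus E2 in both estimates, whereas PIK3CA in E2 moves from 0.14 to 0.03 with the offset.

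Anastrozole alone changed none of the 10 genes at the threshold. By edgeR, 2 members, ERBB2 and PIK3CA, had an unadjusted p under 0.05, and neither DESeq2's test nor limma-voom called any. ERBB2 stood at 297, 293 and 318 CPM in anastrozole libraries a, b and c. These values reached into the vehicle range of 314 to 342 CPM through library c (log2 fold change -0.10 ± 0.04 SE, edgeR adjusted p = 0.193). Without anastrozole library c the log2 fold change of ERBB2 was -0.14 (edgeR adjusted p = 0.0139), and the GC offset on all libraries gave -0.02 (adjusted p = 0.83). PIK3CA stood at 89.5, 83.9 and 88.7 CPM, just above the vehicle range (log2 fold change 0.13 ± 0.06 SE, edgeR adjusted p = 0.232). The GC offset brought the log2 fold change of PIK3CA to 0.05.

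PIK3R1 stood at 138, 137 and 135 CPM with anastrozole, below every vehicle library by a small margin. Its log2 fold change was -0.08 ± 0.05 SE (edgeR adjusted p = 0.466), but -0.13 with the GC offset (adjusted p = 0.0333). ERBB3 at 448, 442 and 448 CPM overlapped with vehicle, as did PIK3R3 at 114, 121 and 107 CPM. Log2 fold changes of the others were 0.09 for ERBB4, 0.02 for IGF1R, 0.13 for INSR, -0.10 for IRS1 and 0.12 for IRS2. Without anastrozole library c that of INSR was 0.006 and that of PIK3R3 -0.01, against -0.05 for PIK3R3 on all libraries. Of all genes tested, 1.4% were higher and 2.27% were lower with anastrozole (296 and 480 genes, but 324 and 290 with the GC offset), and of the abundant genes 6.52% passed in either direction. On simulated counts of this comparison, the test found 98.5% of the genes changed 1.5-fold and 67.2% of those with the smallest fold simulated, which was larger than the folds seen here for ERBB2 (0.931) and PIK3CA (1.09). The simulated counts held no GC trend and no library that stood apart, and the changed genes averaged at least 3 log2 CPM. Recovery on the real counts may therefore be lower.

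With anastrozole plus E2, PIK3R1, PIK3R3 and ERBB2 were lower than in vehicle and no member was higher. PIK3R1 stood at 109, 105 and 115 CPM in combination libraries a, b and c, below all vehicle libraries and below all libraries of either single agent. The log2 fold change against vehicle was -0.40 ± 0.04 SE (edgeR adjusted p = 5.66e-18), and the value with the GC offset was the same to 2 decimals. PIK3R3 stood at 93.7, 105 and 101 CPM, again below every vehicle library (log2 fold change -0.24 ± 0.04 SE, edgeR adjusted p = 3.73e-06). ERBB2 stood at 295, 287 and 281 CPM, lower than in vehicle but higher than in any E2 library (log2 fold change against vehicle -0.18 ± 0.04 SE, edgeR adjusted p = 7.02e-05). The calls for ERBB2 and PIK3R3 were lost with limma-voom and held in every other fit and without each library in turn.

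ERBB3 at 418, 439 and 425 CPM overlapped with vehicle, and its log2 fold change was -0.03. ERBB4 at 112, 122 and 123 CPM had a log2 fold change of -0.05, IGF1R of 0.01, INSR of 0.09, IRS1 of 0.07 and PIK3CA of 0.03. IRS2 stood at 4.20, 5.78 and 4.93 CPM against 3.88, 3.42 and 4.36 CPM in vehicle; the groups overlapped, and the log2 fold change of 0.35 ± 0.17 SE did not pass the threshold (edgeR adjusted p = 0.294). Of all genes tested, 2.33% were lower and 2.71% were higher with the combination, and 8.37% of the abundant genes passed in either direction, against 3 lower and 0 higher among the 10 members. The 3 comparisons with vehicle share the vehicle libraries and are therefore not independent of one another.

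The treatments were also compared directly. ERBB2, ERBB3 and PIK3R1 were higher with anastrozole than with E2, and for each of them no anastrozole library overlapped with an E2 library. The log2 fold change was 0.28 ± 0.04 SE for ERBB2 (edgeR adjusted p = 3.4e-09) and 0.16 ± 0.04 SE for ERBB3 (edgeR adjusted p = 0.00494). For PIK3R1 it was 0.18 ± 0.04 SE (edgeR adjusted p = 0.00764), and this call was lost with DESeq2's test, with limma-voom, with the replicate block (adjusted p = 0.0563), and without anastrozole library b, E2 library b or E2 library c; that of ERBB3 was lost without E2 library a or b. Of all genes tested, 0.62% were higher and 0.705% lower in this comparison, and 2.38% of the abundant genes passed, beside 3 of the 10 members. This background of 280 genes ran from 107 (without E2 library b) to 414 (without anastrozole library c) as single libraries were left out, and was 515 with the GC offset. IRS1, a docking protein of IGF1R and INSR, stood at 71.9, 74.8 and 78.9 CPM with anastrozole and at 83.4, 82.7 and 87.0 CPM with E2. These groups did not overlap, yet IRS1 missed the threshold (log2 fold change -0.16 ± 0.05 SE, edgeR adjusted p = 0.103). IRS1 passed with the GC offset (edgeR adjusted p = 0.02), without anastrozole library c (adjusted p = 0.0132) and in the fit of all 12 libraries. PIK3R3 was called only with the GC offset (log2 fold change 0.14, edgeR adjusted p = 0.0174) or without anastrozole library c (0.18, adjusted p = 0.00704).

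Against E2 alone, the combination had more ERBB2 and ERBB3 mRNA and less ERBB4 and PIK3R1 mRNA. The log2 fold change was 0.20 ± 0.03 SE for ERBB2 (edgeR adjusted p = 4.66e-07), 0.09 ± 0.03 for ERBB3 (adjusted p = 0.0487), -0.13 ± 0.04 for ERBB4 (adjusted p = 0.0104) and -0.14 ± 0.04 for PIK3R1 (adjusted p = 0.00846). ERBB4, at 132, 124 and 135 CPM with E2, did not overlap with the combination, and neither did ERBB2, ERBB3 or PIK3R1. Among the pairs of groups, fold changes of all abundant genes followed GC content most closely here, and ERBB4 and PIK3R1 are poor in GC (39.5% and 41.0%). Under the GC offset ERBB2 was called (log2 fold change 0.12, edgeR adjusted p = 0.0159), while the log2 fold change was 0.08 for ERBB3 (adjusted p = 0.273), -0.05 for ERBB4 (adjusted p = 0.723) and -0.07 for PIK3R1 (adjusted p = 0.569). The calls for ERBB3, ERBB4 and PIK3R1 were also lost with DESeq2's test and with limma-voom, those of ERBB3 and ERBB4 in the fit of all 12 libraries, those of ERBB3 and PIK3R1 with thinned counts, and that of ERBB3 with DESeq2's size factors and with the replicate block. Of single libraries, the call of ERBB4 was lost without E2 library a or c or combination library a, that of PIK3R1 without E2 library a or combination library b, and that of ERBB3 without any library but combination library a. Of all genes tested, 3.23% were higher and 3.51% lower (1424 genes, but 186 with the GC offset), and 12.5% of the abundant genes passed.

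Against anastrozole alone, the combination had less PIK3R1 and PIK3R3. PIK3R1 fell by 0.32 on the log2 scale (SE 0.05, edgeR adjusted p = 1.82e-08), and it was called under every alternative fit and without each library in turn. PIK3R3 fell by 0.19 (SE 0.05, edgeR adjusted p = 0.00738), a call that was lost with DESeq2's test, with limma-voom, with the filterByExpr filter and without anastrozole library b or combination library a or c. Without anastrozole library c, ERBB4 (log2 fold change -0.17, edgeR adjusted p = 0.00694) and IRS1 (0.20, adjusted p = 0.00665) were called as well. ERBB2 had a log2 fold change of -0.07 (edgeR adjusted p = 0.456), and of -0.14 with the GC offset (adjusted p = 0.00209). Of all genes tested, 1.71% were higher and 1.18% lower, and 5.23% of the abundant genes passed in either direction. These 612 genes became 1706 (999 higher, 707 lower) without anastrozole library c and 234 without combination library c.

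**Figure D3:**
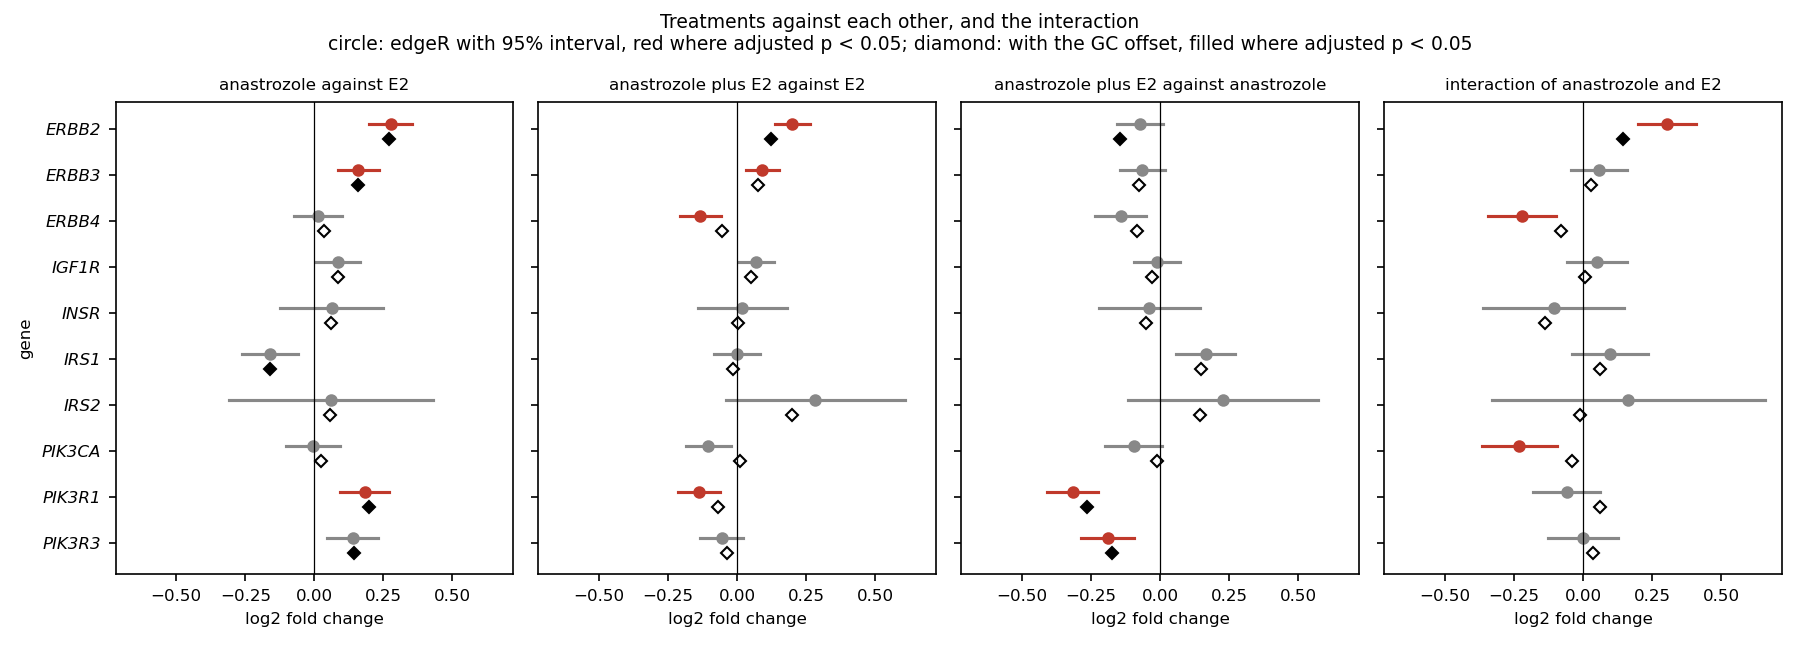
Log2 fold change (x axis) of each gene (y axis) between treatments, and the interaction of anastrozole and E2; circles with 95% intervals are red where the edgeR adjusted p was under 0.05, and diamonds give the estimate with the GC offset, filled where called. ERBB2 is called with and without the offset in 3 of the 4 panels, and the interaction of ERBB4 and PIK3CA lies near 0 with the offset.

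Whether anastrozole acted differently in the presence of E2 was tested by the interaction over all 12 libraries. ERBB2 differed: anastrozole was accompanied by a log2 fold change of -0.10 without E2 and of 0.20 with E2, and the interaction was 0.30 ± 0.05 SE (edgeR adjusted p = 3.36e-06). That of ERBB4 was -0.22 ± 0.06 SE (adjusted p = 0.00698), with anastrozole effects of 0.09 without and -0.13 with E2. That of PIK3CA was -0.23 ± 0.07 SE (adjusted p = 0.0122), with effects of 0.13 and -0.10. The interaction was not called for PIK3R1 (-0.06, edgeR adjusted p = 0.67) or PIK3R3 (-0.001, adjusted p = 1.0), whose 95% intervals ran from -0.18 to 0.06 and from -0.13 to 0.13; with the GC offset the values were 0.06 and 0.03. Among all genes tested, 5.93% had a positive and 4.93% a negative interaction (2295 genes, but 551 with the GC offset, 262 positive and 289 negative), and 19.9% of the abundant genes passed. The interaction had the strongest relation to GC content, with a rho of 0.71 over all abundant genes. With this trend removed, that of ERBB2 was 0.15 (edgeR adjusted p = 0.044), that of ERBB4 -0.08 (adjusted p = 0.574) and that of PIK3CA -0.04 (adjusted p = 0.906). With limma-voom, with thinned counts and without vehicle library a, only ERBB2 of the 3 was called; ERBB4 also lost its call without combination library a, and PIK3CA without E2 library c or combination library c.

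**Figure D4:**
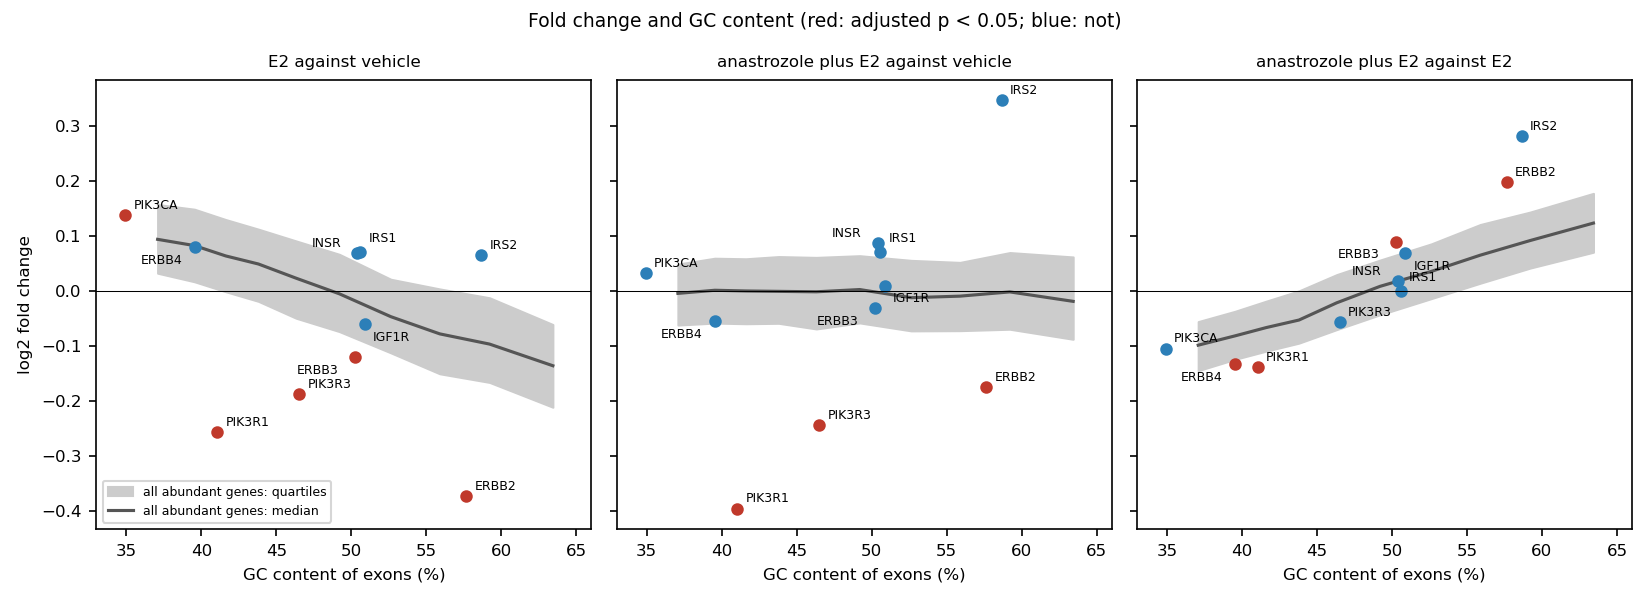
Log2 fold change (y axis) against the GC content of the exons in percent (x axis) for 3 comparisons; the line and band give the median and quartiles of all abundant genes in 10 classes of GC content, and points the 10 genes, red where the edgeR adjusted p was under 0.05. With E2 against vehicle, ERBB2, ERBB3, PIK3R1 and PIK3R3 lie under the band and PIK3CA within the spread of GC-poor genes, and with anastrozole plus E2 against E2 the band slopes upward and ERBB4 lies just under it.

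Profiles of the members were compared over the 12 libraries. The log2 CPM of PIK3R1 and PIK3R3 had a Pearson r of 0.85, and that of ERBB2 and ERBB3 an r of 0.80, the 2 highest among all pairs of the 10 genes. ERBB4 resembled PIK3CA (r = 0.60) and not ERBB2 (r = -0.35). IRS1 ran opposite to ERBB3 (r = -0.65) and to PIK3R3 (r = -0.61). Among all abundant genes, the nearest profiles to ERBB2 were those of PLXNB1 (r = 0.97), SOX13 (r = 0.97) and ERGIC1 (r = 0.96). Those nearest to PIK3R1 were SLC25A16 (r = 0.95), DLG2 (r = 0.94) and VTCN1 (r = 0.94), and VTCN1 was also the nearest to PIK3R3 (r = 0.94). ERBB4 was nearest to FRYL (r = 0.96) and PIK3CA to BRWD3 (r = 0.92), both poor in GC like them (38.9% and 37.3%). The nearest of ERBB3 was ITPRIPL2 (r = 0.90), of IGF1R DVL3 (r = 0.91), of IRS1 MFHAS1 (r = 0.88), of IRS2 CYB561D1 (r = 0.84) and of INSR CHN2 (r = 0.83). These correlations describe 12 libraries that share group, depth and GC trend, and the best of 11051 genes is high by selection.

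The wider pathways were read from a list of 100 further genes, of which 98 were tested and 68 had an average of at least 3 log2 CPM. With E2, 11 of the 98 were higher and 6 lower; with the GC offset the counts were 10 and 2, and 9 genes were called both ways. All 17 were among the 68 abundant genes. Of all abundant genes 21.4% passed, and of all genes tested 6.06% were higher and 5.95% lower. Of the 2 abundant ligands, TGFA, an EGF receptor ligand, had the larger rise, from 21.0 ± 0.569 CPM in vehicle to 33.2 ± 2.60 CPM in E2 (SD, n = 3; log2 fold change 0.65 ± 0.08 SE, edgeR adjusted p = 2.41e-15). EGF rose as well (0.29, adjusted p = 0.00486; 0.22 and adjusted p = 0.0536 with the GC offset). IGFBP4, which binds IGFs outside the cell, rose from 518 ± 12.0 to 589 ± 11.7 CPM (0.18, edgeR adjusted p = 1.24e-07; 0.31 and adjusted p = 3.68e-28 with the GC offset).

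Of 12 tested receptors and adaptors beside the members, GAB2, a docking protein, rose (log2 fold change 0.16, edgeR adjusted p = 0.00683). GRB7, an adaptor whose gene lies close to ERBB2 on chromosome 17, fell by 0.19 (edgeR adjusted p = 0.0469), a call that held in 1 of the 6 fits that each left out a library; the GC offset gave -0.09 (adjusted p = 0.551). None of the 12 other genes grouped with the PI3K subunits, PIK3AP1 and PIK3IP1 among them, was called with E2. This leaves PIK3R1, PIK3R3 and PIK3CA as the subunits listed that passed. The call of PIK3CA held in 4 of the 10 alternative fits and was lost with the GC offset (0.03, edgeR adjusted p = 0.804). In the AKT and mTOR group, 5 of 20 were called with E2, beside 21.4% of all abundant genes. RHEB, the GTPase that activates mTOR, rose (0.26, edgeR adjusted p = 4.69e-06) and 4 fell. Among these were TSC2, which inactivates RHEB (-0.22, edgeR adjusted p = 4.48e-05, and -0.11 with the GC offset), RPTOR (-0.20, adjusted p = 0.00704, and -0.12 with the GC offset) and AKT1 (-0.12, adjusted p = 0.00385). Of these 5, only RHEB was called with the GC offset, and the value of AKT1 was 0.0005.

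Negative regulators were called in both directions with E2, 4 of 22 higher and 1 lower. For comparison, 6.06% of all genes tested were higher and 5.95% lower, and 21.4% of the abundant genes passed in either direction. CBL, a ubiquitin ligase for activated receptors, rose by 0.21 (edgeR adjusted p = 1.07e-05), and INPP4B, a lipid phosphatase, by 0.25 (adjusted p = 0.00172; 0.15 and adjusted p = 0.108 with the GC offset). INPPL1, which encodes another lipid phosphatase, fell by 0.24 (edgeR adjusted p = 1.65e-09; by 0.13 and adjusted p = 0.0021 with the GC offset). Of 12 FOXO factors and FOXO-linked genes, KLF6 (0.24, edgeR adjusted p = 1.34e-05) and BCL6 (0.16, adjusted p = 0.0104) rose and none fell; with the GC offset 3 were higher and 1, CCNG2, was lower (-0.11, adjusted p = 0.0144). Single libraries decided some of these E2 calls: EGF lost its call without vehicle library b, AKT1 without vehicle library c or E2 library b, RPTOR without E2 library b, INPP4B without E2 library a, and BCL6 without vehicle library b or E2 library c.

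With anastrozole plus E2, 13 of the 98 were higher and 2 lower (13 and 4 with the GC offset, the 15 among them), against 2.71% and 2.33% of all genes tested. Of all abundant genes, 8.37% passed in either direction with the combination. TGFA (log2 fold change 0.61, edgeR adjusted p = 1.56e-12), IGFBP4 (0.28, adjusted p = 8.29e-15), RHEB (0.24, adjusted p = 6.87e-05), FOXO3 (0.23, adjusted p = 1.88e-04) and GAB2 (0.18, adjusted p = 0.004) had the smallest adjusted p among the higher genes of their groups. ERRFI1, an inhibitor of ERBB kinases (0.21, edgeR adjusted p = 0.0217), and the adaptor SHC1 (0.11, adjusted p = 0.0432) passed narrowly, and held in 2 and 0 of the 6 fits without a library. INPPL1 (-0.12, edgeR adjusted p = 0.0267) and CITED2 (-0.15, adjusted p = 0.0201) were the lower pair, and each held in 2 of those 6 fits. With anastrozole alone, 3 were called: TGFA (0.32, edgeR adjusted p = 0.0203) and CITED2 (0.26, adjusted p = 1.04e-04) were higher and PIK3C2B, a class II PI3K (-0.20, adjusted p = 0.0441), lower, against 1.4% and 2.27% of all genes tested. All 3 were among the 68 abundant pathway genes, and of all abundant genes 6.52% passed with anastrozole in either direction. CITED2, a transcriptional coregulator, thus stood at 144 ± 8.22 CPM with anastrozole, 120 ± 4.05 in vehicle and 108 ± 4.03 with the combination. With the GC offset, 7 were higher and 0 lower with anastrozole, 2 of them among the 3 called without it. Of the 3 anastrozole calls, PIK3C2B was lost with the GC offset (adjusted p = 0.143), TGFA held in 1 of the 6 fits without a library, that without anastrozole library c, and PIK3C2B in 2, those without anastrozole library c or vehicle library b. The median log2 fold change of the 68 abundant pathway genes was 0.017 with anastrozole, 0.029 with E2 and -0.0032 with the combination, against -0.0035, 0.0038 and -0.0043 for all abundant genes.

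**Figure D5:**
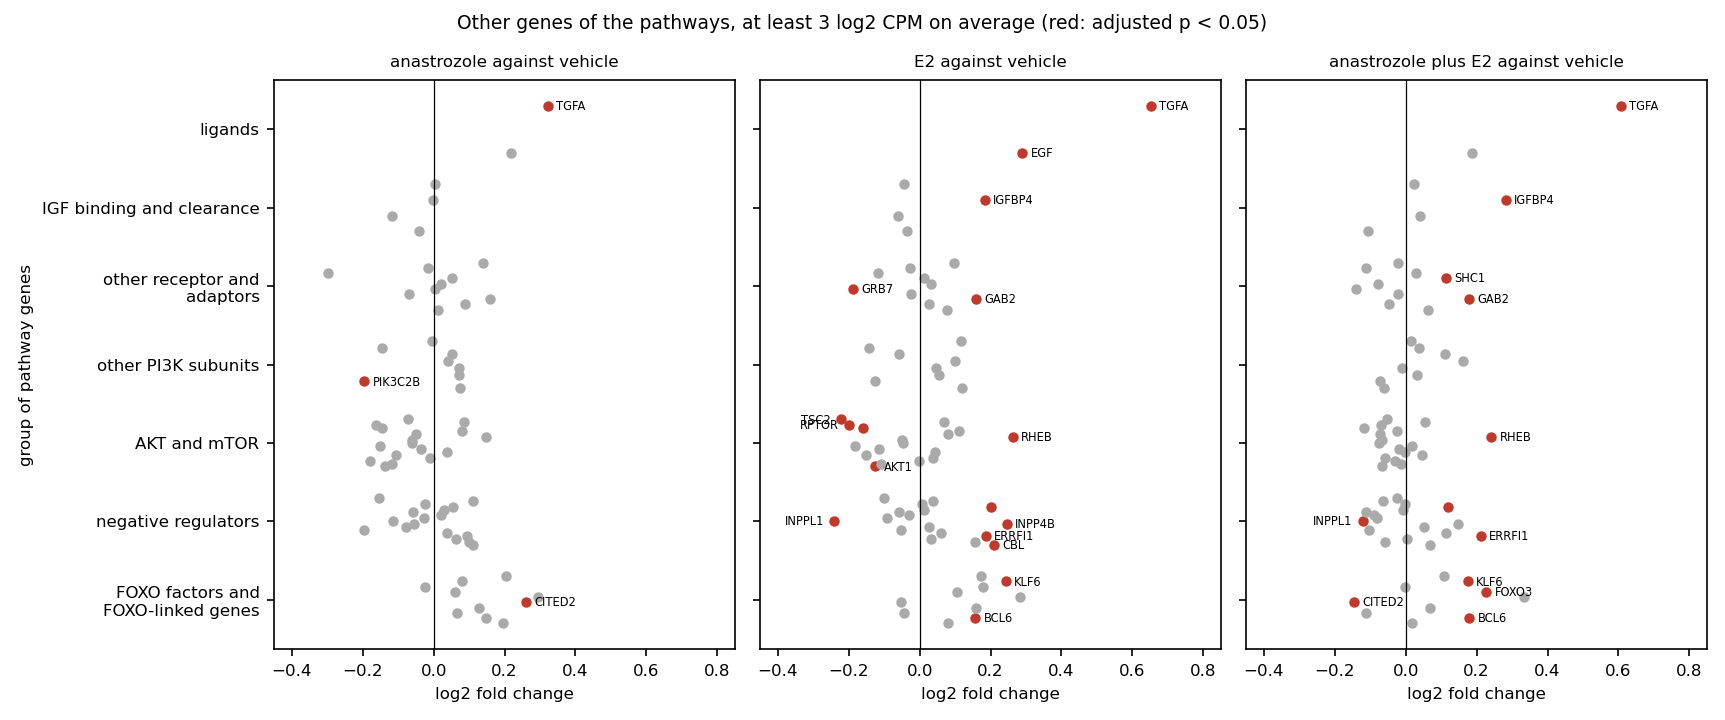
Log2 fold change (x axis) of the 68 abundant pathway genes beside the members, by group of genes (y axis), for the 3 treatments against vehicle; each point is a gene, and red points had an edgeR adjusted p under 0.05. TGFA lies farthest to the right with E2 (0.65) and with anastrozole plus E2 (0.61), and the AKT and mTOR group has called genes on both sides of 0 with E2 and a single one, RHEB, with the combination.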

How the data were processed

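RNA-seq of 12 T47D libraries was deposited as whole-number counts per gene that were not normalized; per the labels and the study's methods, the authors aligned reads to hg19 with TopHat2 2.0.14 and Bowtie2 2.2.6 and counted them with HTSeq, whose version and strand setting are not given in the sources used here. Of the 25375 deposited lines, 5 are summary lines of the counter and were left out; reads in no annotated gene made up 58.6% to 59.9% per library. Groups came from the sample labels. Members and lists were chosen with earlier results of these data known, and genes beside the members were named by a rule (called with at least 3 log2 CPM, up to 4 per group of genes and comparison by smallest adjusted p; the 3 nearest profiles per member, of which some are printed).

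Genes at 0 in all libraries (4238) were removed. For every pair of groups, a model over the 6 libraries was fitted in R 4.3.3 with edgeR 4.0.16 (TMM scaling, quasi-likelihood F test with robust dispersions, 2-sided, Benjamini-Hochberg adjustment over 21132 genes, threshold 0.05), and the interaction on all 12. Standard errors were derived from each log2 fold change and its F statistic. Alternatives were DESeq2's size factors, library size alone, filterByExpr, the DESeq2 1.42.0 test, limma-voom (limma 3.58.1), all 12 libraries in 1 fit, the replicate block, a GC offset (lowess with span 0.5 on genes of at least 3 log2 CPM) with and without the block, random thinning to the lowest library total, and each library left out in turn. The GC offset also removes true change that follows GC content. Exon lengths, GC content and promoter windows came from GENCODE release 44 mapped to GRCh37, with 21539 of the genes matched by symbol, 1493 by an older symbol and 2338 not matched. The edgeR test was checked on simulated data of anastrozole against vehicle. Intervals are 95% intervals of the edgeR fit, and the floor of 3 counts covers counting error only, since reads carry no molecular identifiers. Exons of ERBB2 are shared to 5.53% with MIEN1 and to 1.4% with PGAP3 on the opposite strand, and 17.5% of those of PIK3R3 with a readthrough gene. Some pathway genes and promoter sequence are not reported here.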

Additional observations from a re-analysis of the deposited data

Results flagged for a closer look

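The effect of anastrozole differed between cells without and with E2 for 3 of the 10 genes by the interaction term of edgeR over 12 libraries; of all abundant genes 19.9% passed the same test. For ERBB2 the difference between the effects was 0.30 on the log2 scale, for ERBB4 -0.22 and for PIK3CA -0.23. Without anastrozole library c, which stood apart from library a, the values were 0.34, -0.24 and -0.22, and all 3 were called. With the GC offset they were 0.15, -0.08 and -0.04, and only that of ERBB2 was called, as also with limma-voom, with thinned counts and without vehicle library a; the part of the GC trend in the other 2 was not tested beyond this offset.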

How the results depend on the processing

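The decreases of ERBB2, ERBB3, PIK3R1 and PIK3R3 with E2, and those of PIK3R1 with the combination against vehicle and against anastrozole, kept direction and call in all alternatives run. The number of members called moved by over 1.5 times as follows, and the cause was not tested. With the GC offset, alone and with the replicate block, 1 was called for anastrozole against vehicle (0 in the main analysis), 5 for anastrozole against E2 (3), 1 for the combination against E2 (4) and 1 for the interaction (3); for the combination against anastrozole (2) it was 3 and 4. Limma-voom gave 1 each for the combination against vehicle (3), E2 and anastrozole and for the interaction, and DESeq2's test 1 each for the combination against E2 and anastrozole. With filterByExpr 1 was called for the combination against anastrozole. The fit of all 12 libraries gave 2 for the combination against E2 and 4 for that against anastrozole. Thinning gave 2 for the combination against E2 and 1 for the interaction. Smaller moves were 4 in place of 5 for E2 against vehicle with the GC offset, DESeq2's test, limma-voom and thinning, 2 in place of 3 for anastrozole against E2 with DESeq2's test and limma-voom, 4 in its place with all 12 libraries, and 3 in place of 4 for the combination against E2 with DESeq2's size factors.

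Without single libraries, the counts ran from 4 to 6 for E2 and from 3 to 3 for the combination against vehicle, from 0 to 1 for anastrozole against vehicle (1 without anastrozole library c), from 1 (without E2 library b) to 5 (without anastrozole library c) for anastrozole against E2, from 1 (without E2 library a) to 3 for the combination against E2, from 1 (without anastrozole library b or combination library a or c) to 4 (without anastrozole library c) for the combination against anastrozole, and from 1 (without vehicle library a) to 3 for the interaction.

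Libraries with the same letter did not all deviate together (correlations from -0.14 to 0.32, with letters a and c each over 0.1 in 3 comparisons and letter b in 1, but never all 3 letters over 0.1 within a comparison; at most 4 of 6 libraries were closest to their own letter), so the letters were not taken to pair the libraries. With the replicate block, 4 members were called for E2 against vehicle (PIK3CA lost its call, adjusted p = 0.0553), 2 for anastrozole against E2 (PIK3R1 lost) and 3 for the combination against E2 (ERBB3 lost).

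Among the values printed above, signs turned for those without a call: with thinning IGF1R for anastrozole (-0.0081) and IRS2 for E2 (-0.0371), and with the GC offset, without and with the replicate block, PIK3CA for the combination against E2 (0.0084 and 0.0093) and AKT1 for E2 (0.0005 and 0.0009), which was called before the offset. The interaction turned with the GC offset, without and with the replicate block, for PIK3R1 (0.0621 and 0.0622) and PIK3R3 (0.0348 and 0.0343), and for PIK3R3 also with library size alone (0.0064) and thinning (0.0353), and it ran from -0.0424 to 0.0397 without single libraries. Without single libraries, log2 fold changes against vehicle ran from -0.0366 to 0.0489 for IGF1R and from -0.0516 to 0.2077 for IRS2 with anastrozole, from -0.0439 to 0.1969 for INSR and from -0.0209 to 0.1571 for IRS2 with E2, and with the combination from -0.1058 to 0.014 for ERBB4, from -0.0184 to 0.0376 for IGF1R, from -0.0231 to 0.2166 for INSR and from -0.0179 to 0.087 for PIK3CA.

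Over all genes the number called (776 for anastrozole, 2537 for E2 and 1065 for the combination against vehicle) fell to 15, 1379 and 347 with limma-voom and to 238, 1433 and 463 with DESeq2's test, and that for anastrozole rose to 1651 without its library c and fell to 191 without vehicle library c, 246 without anastrozole library a, 287 without vehicle library a and 301 without anastrozole library b; that for the combination fell to 682 and 686 without its libraries b and c. For the combination against anastrozole (612) it lay between 234 and 348 without any 1 library except anastrozole library c, and for anastrozole against E2 (280) it was 134 without anastrozole library b, 177 without E2 library a and 124 without E2 library c. For the combination against E2 (1424) it was 885 without E2 library c and 935 without combination library c. Pathway genes called for anastrozole (3) ran from 0 with limma-voom to 14 without anastrozole library c, and were 7 with the GC offset and 1 without vehicle library a or c or anastrozole library a or b. Those for E2 (17) fell to 10 with limma-voom, and those for the combination (15) to 3 with limma-voom, 4 with DESeq2's test, 9 with thinning, 8 without vehicle or combination library c and 9 without vehicle library a or combination library b. Depth limits IRS2 and INSR most.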
